A study of Mus musculus with 35 samples.

Results

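The adherens junctions that anchor germ cells to Sertoli cells in the mouse testis were described here through 10 genes: the cadherins Cdh1 and Cdh2, the catenins Ctnnb1, Ctnna1 and Ctnnd1, the actin and membrane linkers Vcl, Eps8 and Espn, the kinase gene Fyn and the integrin gene Itgb1. They were taken by gene symbol and are 10 of 19938 annotated genes on the day 15 arrays and 10 of 18194 on the day 25 arrays. The 10 genes were chosen with earlier results of these data known. The share of all tested genes set beside a count of members therefore describes the arrays and does not test the set. One probe set stood for each gene at day 15 (10 in all) and 27 probe sets for the 10 genes at day 25. The samples were whole testes of male C57BL6 mice at postnatal day 15 or 25, carrying Akt1-/-, Akt1+/- or Akt1+/+ (homozygous, heterozygous and wild type in the labels), each either exposed to propylthiouracil (PTU), a goitrogen that blocks thyroid hormone synthesis, or unexposed. The title calls PTU a neonatal goitrogen; its dose and route, its timing and the deleted part of Akt1 are not stated in the labels used here. The design text assigns 1 mouse to each array, with 3 arrays per group of genotype, exposure and age, except exposed Akt1-/- at day 25, which has 2 because its authors left out an array of poor quality. The series title states the interest as the part of Akt1 in keeping up the blood-testis barrier after this exposure.

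Sertoli cells hold on to each other and to the heads of developing spermatids through ectoplasmic specializations, adherens junctions that are particular to the testis and carry a layer of bundled actin filaments along the membrane. Cadherins reach across the gap between the cells, beta-catenin and p120-catenin bind their tails, and alpha-catenin and vinculin tie that complex to actin. Espin bundles the actin filaments, Eps8 caps and bundles them, Src-family kinases such as Fyn phosphorylate junction proteins, and beta-1 integrin pairs with alpha-6 integrin on the Sertoli side of the spermatid junction.

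Day 15 was measured on MoGene 1.0 ST v1 arrays and day 25 on Mouse Genome 430 2.0 arrays, so each age was tested only within itself, and a level was never set against that of another probe set. Values are log2 intensities (1 unit is a doubling), differences between groups are log2 fold changes ± standard error, and a gene is said to rise, fall or differ where limma's adjusted p over all tested genes lies under 0.05. Whether the arrays of compared groups overlap is only described. The share of all tested genes without overlap is not given here, so it adds no support to a call. The tissue label fits its markers: Sox9 of Sertoli cells read 9.80 to 10.45 at day 15 and 7.82 to 9.02 at day 25, above the 25th percentile of all values (5.56 and 4.76) in every array. Some libraries stand apart. Spink8, a transcript of the epididymis, read 12.92 and 12.75 in the 2 exposed Akt1-/- arrays of day 25, 10.07 in exposed Akt1+/- array 2, 8.72 in exposed Akt1+/+ array 3 and at most 6.40 in the other 13 arrays. At day 15 it read 8.74 in exposed Akt1-/- array 2, 9.38 and 7.91 in unexposed Akt1+/+ arrays 2 and 3, and at most 6.73 elsewhere. The summed intensity of the spermatid markers was 668 to 1342 in the exposed Akt1-/- arrays of day 25, against 32260 to 50970 in unexposed Akt1-/- arrays. The targeted gene Akt1 did not pass the test at day 15 (Akt1-/- minus Akt1+/+, -0.68 ± 0.22, adjusted p = 0.101 in exposed and -0.28 ± 0.22, adjusted p = 0.35 in unexposed mice), nor with its brightest probe set at day 25 (-0.0015 ± 0.09 in exposed and -0.12 ± 0.08 in unexposed mice), which does not check the genotype labels while the deleted part is unknown.

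Promoter windows were at hand for 6 members, and those of the 5 whose transcripts changed in the comparisons described below are shown. Each line holds the 250 bases before a transcription start in RefSeq (GRCm38.p6), read 5′ to 3′ along the gene's strand. Capitals mark matches, on either strand, to GGGCGG (the GC box bound by Sp1-type factors), AGGTCA (the half-site of thyroid hormone receptors and other nuclear receptors) and the CArG box (the site of serum response factor, which acts on many actin-linked genes). The windows lie at chr14:20929148-20929397 on the plus strand for Vcl, chr10:39369549-39369798 on the plus strand for Fyn, chr4:152152390-152152639 on the minus strand for the first listed start of Espn, chr8:128685404-128685653 on the plus strand for Itgb1 and chr9:120933150-120933399 on the plus strand for the first listed start of Ctnnb1.
Vcl: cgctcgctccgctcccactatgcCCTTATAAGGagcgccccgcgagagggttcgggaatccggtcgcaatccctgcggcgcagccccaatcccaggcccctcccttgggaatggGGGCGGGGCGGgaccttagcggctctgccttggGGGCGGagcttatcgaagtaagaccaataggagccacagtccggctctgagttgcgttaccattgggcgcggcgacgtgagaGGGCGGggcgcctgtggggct
Fyn: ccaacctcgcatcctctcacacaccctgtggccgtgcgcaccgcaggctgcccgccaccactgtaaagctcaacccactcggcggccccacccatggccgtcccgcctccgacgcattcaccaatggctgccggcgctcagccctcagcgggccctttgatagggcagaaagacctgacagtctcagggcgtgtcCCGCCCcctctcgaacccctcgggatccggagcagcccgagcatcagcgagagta
Espn: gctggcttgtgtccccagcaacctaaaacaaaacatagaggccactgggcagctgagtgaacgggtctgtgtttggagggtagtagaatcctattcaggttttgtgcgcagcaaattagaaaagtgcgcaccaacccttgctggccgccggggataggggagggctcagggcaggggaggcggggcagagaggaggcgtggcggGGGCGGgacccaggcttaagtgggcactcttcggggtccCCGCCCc
Itgb1: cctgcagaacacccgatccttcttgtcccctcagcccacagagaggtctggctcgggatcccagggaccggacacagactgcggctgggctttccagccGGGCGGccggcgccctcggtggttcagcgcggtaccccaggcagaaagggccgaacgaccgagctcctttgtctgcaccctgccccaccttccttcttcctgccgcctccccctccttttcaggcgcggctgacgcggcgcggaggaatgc
Ctnnb1: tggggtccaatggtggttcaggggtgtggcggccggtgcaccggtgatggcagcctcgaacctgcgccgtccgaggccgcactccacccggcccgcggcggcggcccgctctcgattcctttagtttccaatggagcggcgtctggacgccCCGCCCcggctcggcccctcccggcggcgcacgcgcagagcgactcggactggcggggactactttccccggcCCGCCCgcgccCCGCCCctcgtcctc
These genes and Ctnnd1 had 10 such windows in all, of 6 genes, since some have several listed starts, and the 2 windows of Ctnnb1 overlap. GGGCGG was found in 7 of the 10 windows, against 32.7% of the 32851 promoter windows of the same length, with 4 matches in Vcl, of which 2 overlap, and 1 in Fyn. AGGTCA was found in 1 of 10, the second Ctnnd1 start, against 14.0% of all windows. The CArG box was found in 1 of 10, in Vcl, where it starts at position -227 from the transcription start, against 1.47% of all windows. CACGTG, the E-box, was found in 0 of 10, against 6.02% of all windows. A match describes letters in a window and is no evidence of binding. No window was at hand for Cdh1, Cdh2, Ctnna1 and Eps8, whose transcripts also changed in comparisons below. The windows of Ctnnd1 are not shown.

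At day 15 the junction genes that changed with PTU in Akt1-/- testes were lower. Cdh2, Vcl, Fyn, Eps8 and Espn fell, 5 of 10, where 4.37% of the 16710 tested genes fell and 4.96% passed in either direction. The median of the 10 was -0.28, against 0.01 over all tested genes, and no member rose. The plot of log2 intensity per array at day 15 shows these values, and the sentences that follow give them for the members that changed.

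Cdh2 encodes N-cadherin, the classical cadherin of Sertoli and germ cells. It read 9.67, 9.27 and 9.26 in exposed Akt1-/- testes, against 9.96, 10.02 and 9.81 in unexposed Akt1-/- testes. The groups did not overlap, and Cdh2 fell by 0.53 ± 0.11 (adjusted p = 0.0131). Espn encodes espin, the bundling protein by which ectoplasmic specializations are often recognised. Its values were 8.53, 8.60 and 8.55 in exposed Akt1-/- testes, against 9.12, 9.09 and 9.19 in unexposed ones, a fall of 0.57 ± 0.13 (adjusted p = 0.0168). For Espn the gap between the groups was wider than the spread within either of them, which was not so for Cdh2.

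Vcl encodes vinculin, which strengthens the link from catenins to actin. It read 10.66, 10.69 and 10.82 in exposed Akt1-/- testes, against 11.25, 11.26 and 11.07 in unexposed Akt1-/- testes (-0.47 ± 0.09, adjusted p = 0.00853). Fyn read 10.50, 10.44 and 10.41 in exposed Akt1-/- testes, against 11.07, 10.93 and 10.88 in unexposed ones (-0.51 ± 0.09, adjusted p = 0.00832). Neither gene's groups overlapped. Eps8 read 9.26, 9.07 and 9.27 in exposed Akt1-/- testes, against 9.71, 9.56 and 9.41 in unexposed ones (-0.36 ± 0.10, adjusted p = 0.0424), the smallest of the 5 falls.

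The beta-catenin gene Ctnnb1 and the integrin gene Itgb1 overlapped between the exposed and unexposed Akt1-/- arrays, at 0.02 ± 0.09 (adjusted p = 0.918) and -0.03 ± 0.09 (adjusted p = 0.867). Ctnna1 and Ctnnd1, for alpha-catenin and p120-catenin, did not overlap but did not pass, at -0.20 ± 0.09 (adjusted p = 0.18) and -0.20 ± 0.08 (adjusted p = 0.167). Cdh1, which encodes E-cadherin, a cadherin of epithelia that marks early spermatogonia in the mouse testis, had -0.14 ± 0.11 (adjusted p = 0.473). Its probe set is dim, with a mean at the 39.8th percentile of all gene means at day 15.

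The adjusted p of the 5 falls depended on single arrays and on which groups were fitted together. With only the 2 groups in the fit, without the arrays in which Spink8 exceeds 7, within the first of 2 array sets described further on or without unexposed Akt1-/- array 1, 0 of the 5 passed; 5 members lay under an unadjusted p of 0.05 in each of the first 3 settings, where limma called 0 genes in all, against 2695, 2270 and 3993 at an unadjusted p under 0.05. Within the first set 1 exposed Akt1-/- array was left, assumed to vary like the other groups. The log2 fold changes were those reported with only the 2 groups in the fit, and without the Spink8 arrays they were -0.47 for Cdh2, -0.45 for Vcl, -0.50 for Fyn, -0.60 for Espn and -0.30 for Eps8. Without exposed Akt1-/- array 2, 1 of the 5 passed (Fyn), and without unexposed Akt1-/- array 2, 2 (Vcl and Fyn). Among cell type markers, 5 of 15 tested Sertoli cell genes fell in the same comparison, with a list median of -0.33, among them Tsx (-1.81 ± 0.37, adjusted p = 0.0111) and Inha (-0.68 ± 0.14, adjusted p = 0.0142), while Sox9 had -0.21 ± 0.10 (adjusted p = 0.253). The summed intensity of the Sertoli list was 28454 to 32915 in exposed Akt1-/- arrays, against 36179 to 41953 in unexposed ones. Its part in the result was not tested, and in whole testis fewer cells of a type and less RNA per cell cannot be told apart.

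**Figure D1:**
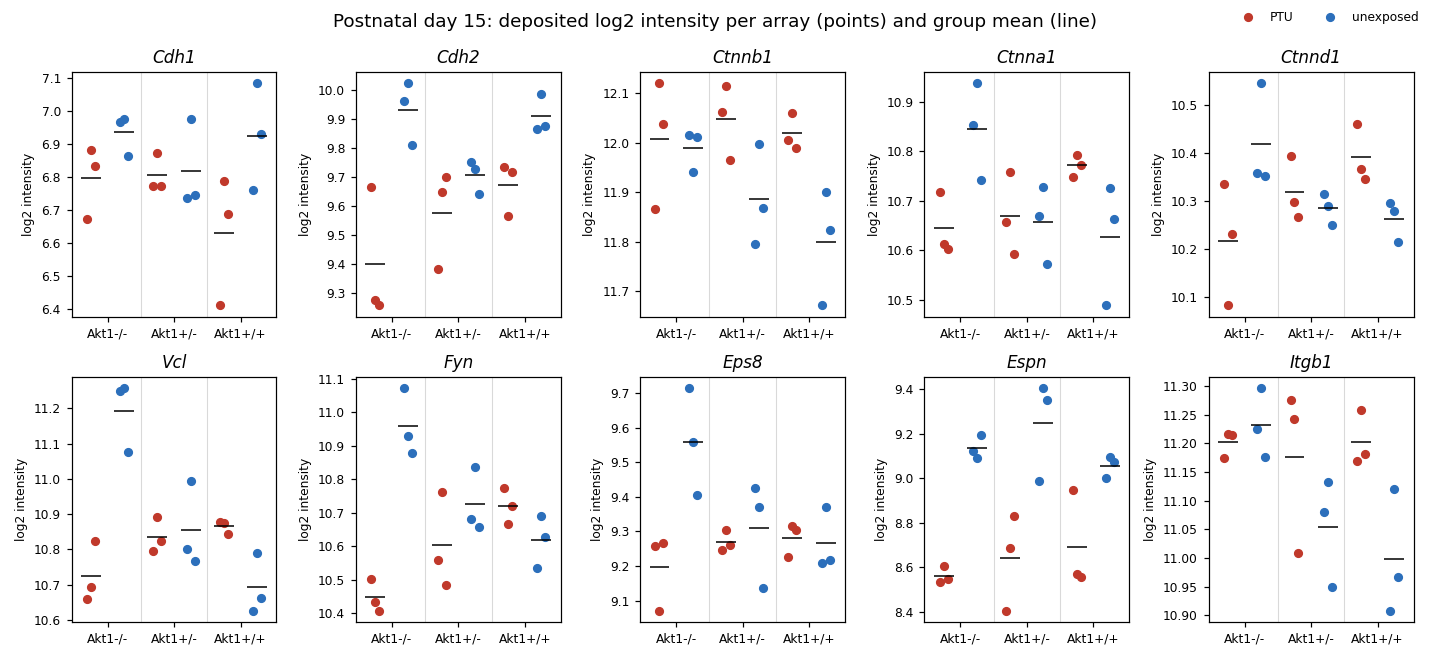
Log2 intensity of each of the 10 genes at postnatal day 15, with 1 point per array, PTU-exposed arrays in red to the left of unexposed arrays in blue, genotypes along the x axis and a line at each group mean of 3 arrays. For Espn the exposed Akt1-/- arrays (8.53 to 8.60) lie below the unexposed ones (9.09 to 9.19), and for Vcl the unexposed Akt1-/- arrays (11.07 to 11.26) lie above the other groups.

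In Akt1+/- testes at day 15 Espn fell with PTU, at 8.40, 8.69 and 8.83 in exposed and 8.99, 9.40 and 9.35 in unexposed arrays (-0.61 ± 0.13, adjusted p = 0.0384). It was 1 of 10 members, where 0.377% of the tested genes fell and 0.569% passed. The other 9 had values between -0.13 for Cdh2 and 0.16 for Ctnnb1 and did not pass. The Espn call was lost without any 1 of 9 of the 18 arrays, with adjusted p up to 0.265 without exposed Akt1+/- array 1.

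In Akt1+/+ testes at day 15 limma called 0 of the 10 members, where 15.3% of the tested genes passed; 4 members had an unadjusted p under 0.05. Espn read 8.95, 8.57 and 8.56 in exposed arrays and 9.0, 9.10 and 9.07 in unexposed ones, a difference of -0.36 ± 0.13 (adjusted p = 0.0618). The exposed arrays were all below the unexposed ones, with array 1 close to them. Cdh1 had -0.30 ± 0.11 (adjusted p = 0.0785), with its 2 highest unexposed values, 7.08 and 6.93, in the arrays in which Spink8 read 9.38 and 7.91; the part of this transcript's tissue was not tested. Ctnnb1 and Itgb1 lay above 0, at 0.22 ± 0.09 (adjusted p = 0.105) and 0.21 ± 0.09 (adjusted p = 0.132). Array weights, which give noisy arrays less say, called 6 of the 10: Cdh1, Cdh2 and Espn lower, and Ctnnb1, Vcl and Itgb1 higher. The share of all tested genes called with weights is not given here, so this count says nothing particular to the members.

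Averaged over the genotypes, Espn (-0.52 ± 0.07, adjusted p = 3.24e-04), Cdh2 (-0.30 ± 0.07, adjusted p = 0.00613) and Fyn (-0.18 ± 0.05, adjusted p = 0.034) fell with PTU at day 15. The Fyn average joins unlike genotypes. Its mean was 10.72 in exposed and 10.62 in unexposed Akt1+/+ testes, on the other side. It was 10.60 and 10.73 in Akt1+/-, and 10.45 and 10.96 in Akt1-/- testes. These are 3 of 10, where 8.09% of the tested genes fell and 12% passed. Espn passed in each of the 28 alternatives tried for it, between -0.58 and -0.46, Cdh2 in 27, and Fyn in 15.

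**Figure D2:**
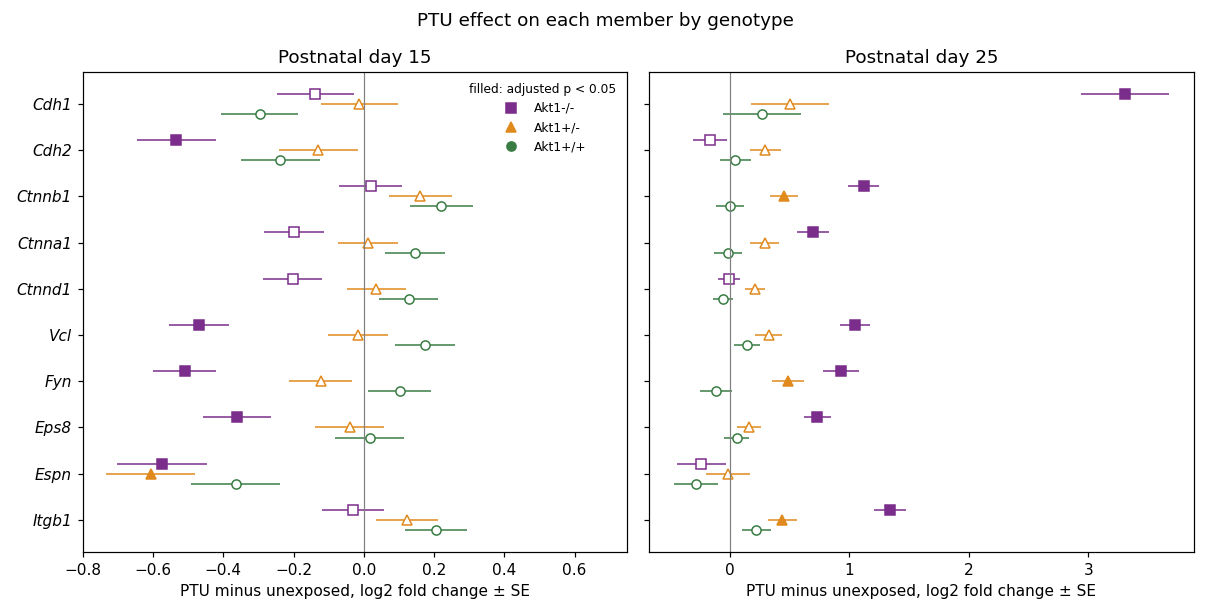
PTU-exposed minus unexposed log2 fold change (x axis, ± standard error) of each of the 10 genes in Akt1-/- (squares), Akt1+/- (triangles) and Akt1+/+ testes (circles) at day 15 (left) and day 25 (right), filled where limma's adjusted p was under 0.05. At day 15 the filled symbols lie left of 0, from -0.61 for Espn in Akt1+/- to -0.36 for Eps8 in Akt1-/-, and at day 25 they lie right of 0, up to 3.31 for Cdh1 in Akt1-/-.

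In unexposed testes of day 15 Vcl, Fyn and Eps8 were higher in Akt1-/- than in Akt1+/+, 3 of 10, where 14.6% of the tested genes were higher and 28.9% passed in either direction, a share close to that of the members. Vcl read 11.25, 11.26 and 11.07 in Akt1-/-, against 10.63, 10.79 and 10.66 in Akt1+/+ (0.50 ± 0.09, adjusted p = 3.46e-04). The groups lay apart by more than the spread within either, and Vcl passed in 29 of 29 alternatives. Fyn read 11.07, 10.93 and 10.88 in Akt1-/-, against 10.53, 10.69 and 10.63 in Akt1+/+ (0.34 ± 0.09, adjusted p = 0.00905). Eps8 read 9.71, 9.56 and 9.41 in Akt1-/-, against 9.21, 9.37 and 9.22 in Akt1+/+ (0.29 ± 0.10, adjusted p = 0.0322), and its lowest Akt1-/- array was just above the highest Akt1+/+ array.

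Itgb1 (0.23 ± 0.09, adjusted p = 0.0558) and Ctnna1 (0.22 ± 0.09, adjusted p = 0.0655) missed the threshold here, while the cadherins and espin were close to 0: Cdh1 0.01 ± 0.11, Cdh2 0.02 ± 0.11 and Espn 0.08 ± 0.13. The members' median was 0.20, against 0.08 over all tested genes. Fyn and Eps8 no longer passed without unexposed Akt1-/- array 1 (adjusted p = 0.0539 and 0.16), without unexposed Akt1+/+ array 1 (0.0518 and 0.113) or without the Spink8 arrays (0.42 with adjusted p = 0.0524 and 0.35 with adjusted p = 0.112), where 1 unexposed Akt1+/+ array was left, assumed to vary like the other groups. In this comparison all 12 pachytene and later spermatocyte markers were lower in Akt1-/-, with a median of -3.16 and a summed intensity of 2261 to 3634 in Akt1-/-, against 18174 to 24649 in Akt1+/+. Of the Sertoli list 7 of 15 were higher and 1 was lower (median 0.35), and of the spermatogonial list 7 of 10 were higher (median 0.50). Their part in the result was not tested.

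Among exposed testes of day 15 limma called 0 of 10 members between Akt1-/- and Akt1+/+, where it called 0% of all genes (4266 at an unadjusted p under 0.05, 2 of them members). The 2 were Fyn, at 10.50, 10.44 and 10.41 in Akt1-/- and 10.78, 10.67 and 10.72 in Akt1+/+ (-0.27 ± 0.09, adjusted p = 0.105), and Cdh2 (-0.27 ± 0.11, adjusted p = 0.154). Without exposed Akt1-/- array 1 both passed (Cdh2 -0.41, adjusted p = 0.0178; Fyn -0.30, adjusted p = 0.0457) and limma called 3308 genes. With the replicate number as a block, 0 members and 750 genes passed. Akt1+/- minus Akt1+/+ gave 0 of 10 in exposed testes, where 0% of genes passed (887 at an unadjusted p under 0.05, 0 of them members), and 0 of 10 in unexposed testes, where 3.95% passed (0 members at an unadjusted p under 0.05). With the block, 0 members and 1303 genes passed in unexposed testes, against 660 without it.

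Because Vcl and Fyn were higher in unexposed Akt1-/- testes and fell there with PTU, the PTU effect itself was compared between genotypes. At day 15 the effect in Akt1-/- minus that in Akt1+/+ was -0.64 ± 0.12 for Vcl (adjusted p = 0.0024) and -0.61 ± 0.13 for Fyn (adjusted p = 0.00418), 2 of 10 members, where 8.13% of the tested genes had a lower and 16.4% a different effect. Both passed in 29 of 29 alternatives; of these, the fit without the Spink8 arrays left 1 unexposed Akt1+/+ array and the fit within the first array set left 1 exposed Akt1-/- array, so neither tests the spread of that group. The comparison shares its unexposed arrays with the ones above, so its direction for these genes is not a separate result. Eps8 (-0.38 ± 0.14, adjusted p = 0.0719), Ctnna1 (-0.34 ± 0.12, adjusted p = 0.0617) and Ctnnd1 (-0.33 ± 0.12, adjusted p = 0.0664) were on the same side and did not pass. For Espn, which was lower with PTU in each genotype, the difference in effect was -0.21 ± 0.18 (95% interval -0.59 to 0.17, adjusted p = 0.451). Akt1+/- gave 0 of 10 against Akt1+/+, where 0.449% of genes passed and no member had an unadjusted p under 0.05.

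The arrays of day 15 were split into 2 sets by clustering on 1685 bright probe sets without a gene symbol. The number of sets was fixed in the method. The first set holds all Akt1+/+ arrays and the second holds 2 exposed and 1 unexposed Akt1-/- array, with 1 exposed and 2 unexposed Akt1+/- arrays. With array set as a block the counts of members stayed at 5 for PTU in Akt1-/- and 2 for the difference in PTU effect. For Akt1-/- minus Akt1+/+ in unexposed testes the count came to 5, with Ctnna1 (0.25, adjusted p = 0.0195) and Itgb1 (0.26, adjusted p = 0.0228) added. The share of all tested genes called with this block is not given here, so the added calls say nothing particular to the members.

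Further genes of the junction's pathway were read from 3 lists: other cadherins and catenins (14 genes), actin bundling, branching and membrane linkage (25, of which 23 were tested) and integrin partners, Src kinases and adhesion adaptors (22, of which 20 were tested). These lists too were chosen with earlier results of these data known. For PTU in Akt1-/- at day 15, 0 of the 57 rose and 4 fell, where 4.37% of all tested genes fell (median -0.11, against 0.01 over all genes). They were Lamb2, a laminin chain (-0.66 ± 0.12, adjusted p = 0.00853), Pxn, the adaptor paxillin (-0.47 ± 0.12, adjusted p = 0.0281), Itga6, the alpha-6 integrin that pairs with Itgb1 (-0.54 ± 0.14, adjusted p = 0.0349), and Ctnnal1, an alpha-catenin relative (-0.55 ± 0.11, adjusted p = 0.00949). Averaged over genotypes 2 rose and 5 fell, where 12% of all tested genes passed.

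For Akt1-/- minus Akt1+/+ in unexposed testes of day 15, 21 of the 57 were higher and 1 was lower, where 14.6% of all tested genes were higher and 28.9% passed (median 0.27, against 0.08). By list, 11 of the 20 integrin and adaptor genes were higher, led by Parva, the linker parvin (0.64 ± 0.10), Itga6 (0.77 ± 0.14) and the kinase gene Src (0.61 ± 0.11). Among the cadherins and catenins 4 were higher and 1 lower, with Cdh5, the cadherin of endothelium (0.75 ± 0.13), Jup, or plakoglobin (0.65 ± 0.11), and Cdh11 (0.81 ± 0.16) first by p. Of the actin genes 6 of 23 were higher, led by Fscn1 for fascin (0.61 ± 0.13). The PTU effect was lower in Akt1-/- than in Akt1+/+ for 10 of the 57 and higher for 0, where 8.13% of all tested genes had a lower effect, with Itga6 (-1.03 ± 0.20, adjusted p = 0.00276) and Jup (-0.71 ± 0.16, adjusted p = 0.00638) among them. In Akt1+/+ itself 5 of the 57 rose with PTU and 2 fell, where 15.3% of all tested genes passed, and in Akt1+/- 1 rose, Cdh11 (0.96 ± 0.16, adjusted p = 0.00972), where 0.569% passed.

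At day 25 the members that changed with PTU in Akt1-/- testes were higher, in a comparison in which most tested genes changed. Cdh1, Ctnnb1, Ctnna1, Vcl, Fyn, Eps8 and Itgb1 rose, 7 of 10, where 38.4% of the 16305 tested genes rose and 71.2% passed in either direction. The median of the 10 was 0.83, against 0.02 over all tested genes. Cdh1 is in the test only because of exposed arrays: it passed the filter on low values in 3 of 17 arrays, all of them exposed, and so had to differ; of the other 9, 6 rose. Those 9 lay above that filter in all 17 arrays.

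Cdh1 read 6.46 and 8.06 in exposed Akt1-/- testes, against 3.94, 3.98 and 3.93 in unexposed ones (3.31 ± 0.37, adjusted p = 1.97e-06). In exposed Akt1+/- it read 3.95, 4.92 and 3.82, in exposed Akt1+/+ 3.97, 3.88 and 4.55, and in unexposed Akt1+/- and Akt1+/+ arrays between 3.63 and 3.99. The 4 arrays with the highest Cdh1 are the 4 with the highest Spink8. E-cadherin is also made by the epithelium of the epididymis. Of 5 tested epididymal markers 4 rose in the same comparison (Spink8, Defb42, Adam7 and Lcn5, the last by 1.73 ± 0.21) and Lcn8 did not (0.02 ± 0.12), and the summed intensity of the 7 measured epididymal genes was 11315 to 11799 in exposed Akt1-/- arrays, against 173 to 212 in unexposed ones. The part of this tissue in the Cdh1 value was not tested. At day 15 Cdh1 read 6.88 in the exposed Akt1-/- array with Spink8 at 8.74 and 6.67 and 6.83 in the other 2, and in unexposed Akt1+/+ it read 7.08 and 6.93 in the arrays with Spink8 at 9.38 and 7.91 and 6.76 in the third.

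**Figure D3:**
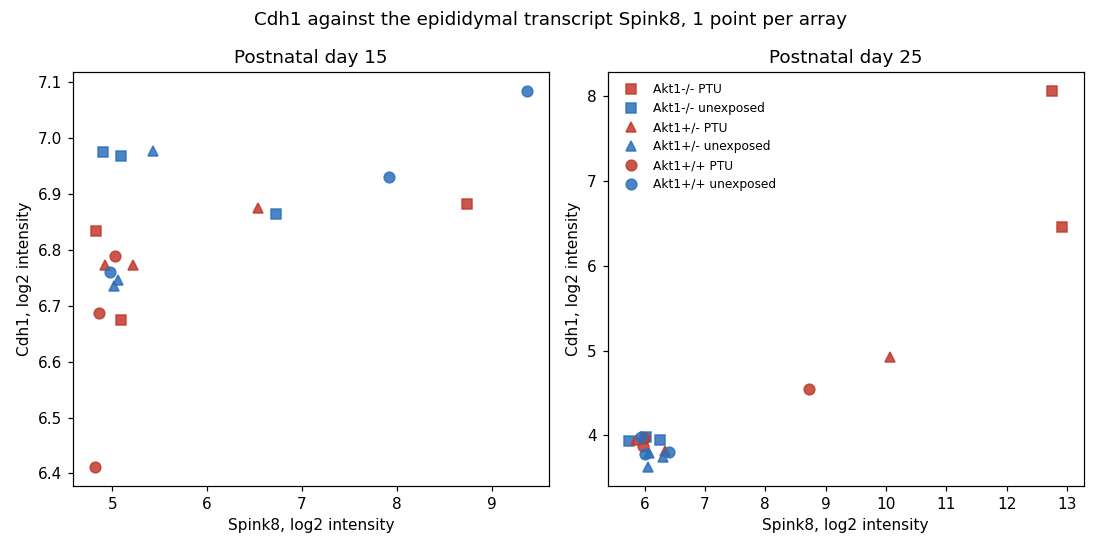
Cdh1 (y axis) against the epididymal transcript Spink8 (x axis), both as log2 intensity with 1 point per array, at day 15 (left) and day 25 (right), by genotype (shape) and exposure (colour). At day 25 the 2 exposed Akt1-/- arrays lie at Spink8 12.92 and 12.75 with Cdh1 at 6.46 and 8.06, and the 13 arrays with Spink8 up to 6.40 have Cdh1 between 3.63 and 3.99.

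Among the catenins, Ctnnb1 read 13.40 and 13.57 in exposed Akt1-/- testes, against 12.18, 12.49 and 12.42 in unexposed ones (1.12 ± 0.13, adjusted p = 2.89e-06). Ctnna1 read 11.57 and 11.98 in exposed Akt1-/- testes, against 11.06, 11.21 and 10.98 in unexposed ones (0.70 ± 0.13, adjusted p = 2.87e-04). Ctnnd1 read 9.88 and 9.79 in exposed Akt1-/- testes, against 9.90, 9.76 and 9.86 in unexposed ones (-0.0048 ± 0.09, adjusted p = 0.966). So beta-catenin and alpha-catenin transcripts stood above all other arrays of that age, while those of p120-catenin overlapped between the groups, with a 95% interval of -0.20 to 0.20.

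Itgb1 showed the largest fold of the 6 members that rose besides Cdh1. It read 10.62 and 10.61 in exposed Akt1-/- testes, against 9.11, 9.53 and 9.18 in unexposed ones (1.34 ± 0.14, adjusted p = 1.04e-06). Vcl read 11.06 and 11.35 in exposed Akt1-/- testes, against 10.16, 10.20 and 10.10 in unexposed ones (1.05 ± 0.12, adjusted p = 3.16e-06). Both genes were higher there than in any other array of day 25, as was Fyn, at 10.76 and 10.74 in exposed Akt1-/- testes, against 9.47, 9.93 and 10.05 in unexposed ones (0.93 ± 0.15, adjusted p = 5.2e-05). Eps8 read 9.35 in both exposed Akt1-/- arrays, against 8.62 in each of the 3 unexposed ones (0.73 ± 0.11, adjusted p = 4.28e-05).

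Of N-cadherin and espin, neither transcript passed here. Cdh2 read 10.39 and 9.86 in exposed Akt1-/- testes, against 10.14, 10.23 and 10.50 in unexposed ones (-0.17 ± 0.14, adjusted p = 0.313). Espn read 9.23 and 9.76 in exposed Akt1-/- testes, against 9.55, 9.55 and 10.12 in unexposed ones (-0.24 ± 0.21, adjusted p = 0.304). The 2 exposed arrays differed from each other more than the group means did in both genes, and without exposed Akt1-/- array 1 Cdh2 passed (-0.43, adjusted p = 0.0141).

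The 7 genes passed in each of the alternatives that could be fitted, 25 for Cdh1 and 26 for each of the other 6, among them leaving out either of the 2 exposed arrays, in which case the remaining one is assumed to vary like the other groups. In the alternative with every probe set on its own, the probe set with the smallest p stood for each gene, which favours a pass. With the mean of a gene's probe sets the rise was 0.45 for Vcl, against 1.05 as reported, and 0.73 for Itgb1, against 1.34, the lowest value of each over the alternatives. That mean also takes in Itgb1 probe sets that lay below the filter in all arrays, and the tested ones are given further on. The 7 rises cannot be tested without the Spink8 arrays, since both exposed Akt1-/- arrays are among them. Other cell type markers moved in the same comparison. All 10 spermatid markers and all 12 pachytene and later spermatocyte markers fell (medians -6.00 and -1.31), all 9 spermatogonial markers rose (median 1.28), 9 of 14 Sertoli markers rose and 3 fell (median 0.71), and 4 of 6 peritubular myoid markers rose and 1 fell (median 1.26). The summed intensity of the Sertoli list was 46149 to 48487 in exposed Akt1-/- arrays, against 31489 to 34208 in unexposed ones. The spermatid gene Prm1 read 6.31 to 6.77 in exposed Akt1-/- arrays, against 12.50 to 13.42 in unexposed ones. The part of these shifts in the junction genes was not tested.

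**Figure D4:**
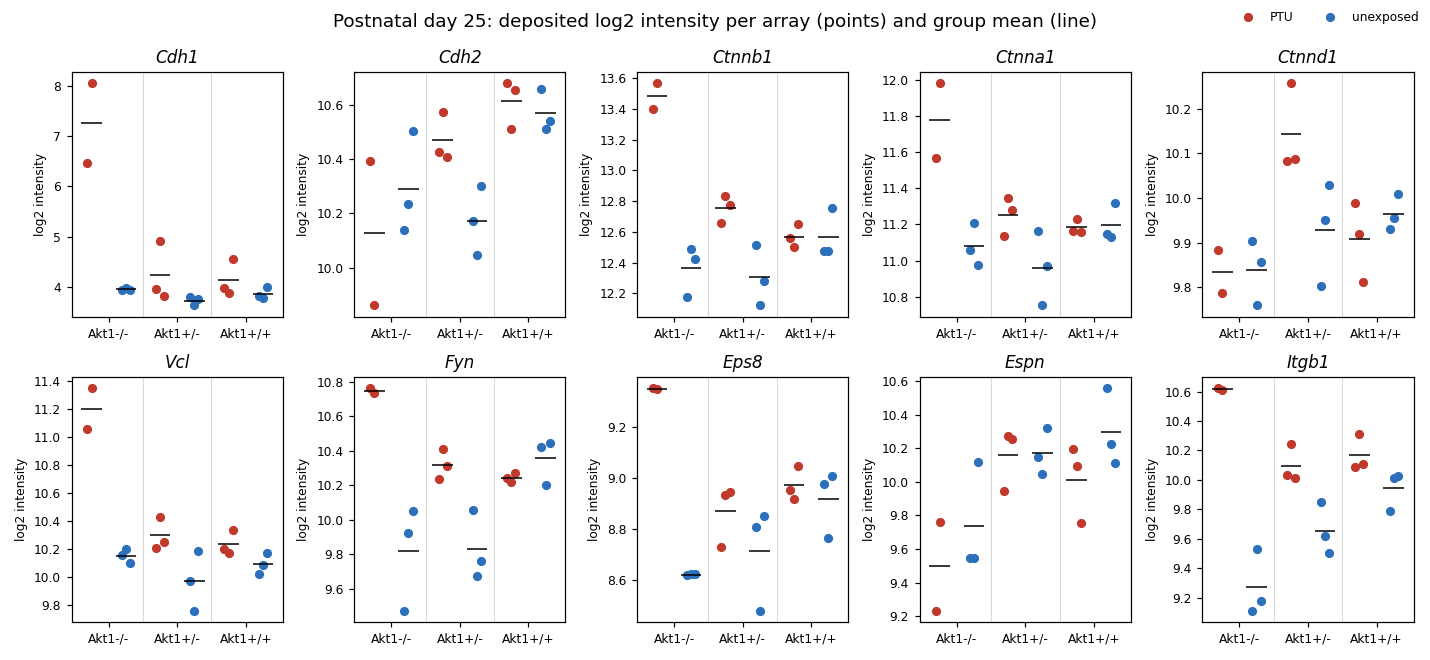
Log2 intensity of the brightest probe set of each of the 10 genes at postnatal day 25, with 1 point per array, PTU-exposed arrays in red to the left of unexposed arrays in blue, genotypes along the x axis and a line at each group mean. The 2 exposed Akt1-/- arrays lie above every other array for Ctnnb1 (13.40 and 13.57), Vcl (11.06 and 11.35) and Itgb1 (10.62 and 10.61), and within or below the unexposed range for Cdh2, Ctnnd1 and Espn.

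Other probe sets of the same genes gave partly different values at day 25. All 3 tested probe sets of Ctnnb1 (0.92 to 1.12), of Ctnna1 (0.70 to 1.34) and of Itgb1 (1.22 to 1.46) and both of Fyn (0.74 and 0.93) rose with PTU in Akt1-/- testes. For Vcl the second probe set had -0.15 ± 0.24 (adjusted p = 0.596), against 1.05 for the brightest, so the rise of Vcl rests on 1 of 2. For Cdh2 the second fell by 0.91 ± 0.19 (adjusted p = 6.55e-04), against -0.17 for the brightest. The third of Ctnnd1 rose (0.48 ± 0.17, adjusted p = 0.0189), and the third of Eps8 did not pass (0.21 ± 0.11, adjusted p = 0.112). One further probe set of Ctnna1 and 3 of Itgb1 lay below the filter in all arrays.

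**Figure D5:**
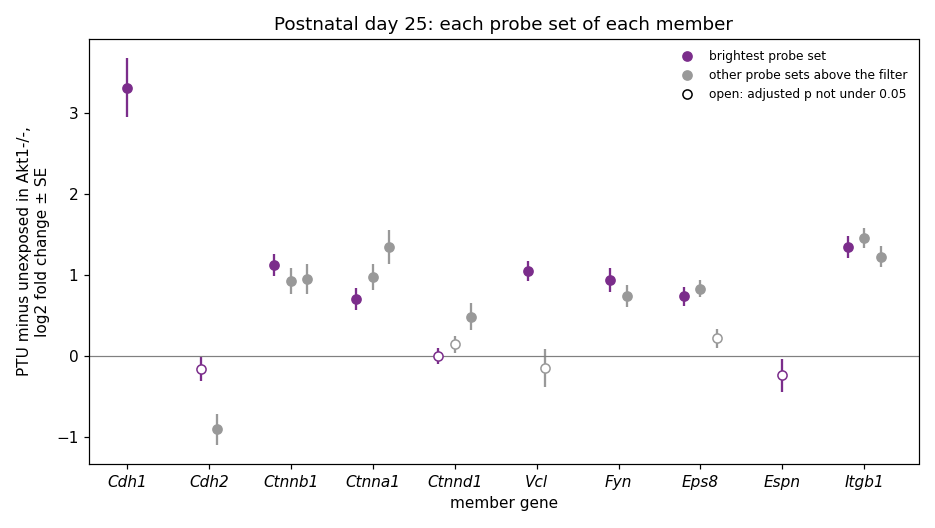
Log2 fold change (y axis, ± standard error) of PTU-exposed minus unexposed Akt1-/- testes at day 25 for each tested probe set of the 10 genes (x axis), the brightest in purple and the others in grey, open where the adjusted p was not under 0.05. The probe sets of Vcl (1.05 and -0.15) and Cdh2 (-0.17 and -0.91) lie apart, and those of Ctnnb1, Fyn and Itgb1 lie together above 0.

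In Akt1+/- testes of day 25, 3 of 10 members rose with PTU, where 11.5% of the tested genes rose and 18.7% passed. Ctnnb1 read 12.66, 12.83 and 12.77 in exposed and 12.51, 12.12 and 12.28 in unexposed Akt1+/- testes (0.45 ± 0.12, adjusted p = 0.0165). Fyn read 10.23, 10.41 and 10.31 in exposed and 10.06, 9.68 and 9.76 in unexposed ones (0.49 ± 0.13, adjusted p = 0.0217). Itgb1 read 10.03, 10.25 and 10.02 in exposed and 9.85, 9.62 and 9.50 in unexposed ones (0.44 ± 0.12, adjusted p = 0.0237). In all 3 genes the lowest exposed array lay above the highest unexposed one, and PTU-exposed array 2, with Spink8 at 10.07, was the highest. Without the Spink8 arrays 0 of 10 passed (Ctnnb1 0.41, adjusted p = 0.0574; Fyn 0.44, adjusted p = 0.0819; Itgb1 0.37, adjusted p = 0.0983; 4 members at an unadjusted p under 0.05). The count was also 0 without exposed or unexposed Akt1+/- array 2. Without unexposed array 3 none of the 3 passed (adjusted p = 0.0528 for Ctnnb1, 0.0728 for Fyn and 0.0950 for Itgb1) and Vcl did (0.43, adjusted p = 0.0297). The count was 6 without the exposed Akt1-/- arrays, with Cdh2 (0.30), Ctnna1 (0.29) and Vcl (0.32) added. The share of all tested genes called in that fit is not given here, so the added calls say nothing particular to the members. Leaving out 1 array at a time, limma called 874 to 4445 genes for PTU in Akt1+/-, against 3042 as reported. All 10 spermatid markers fell in this comparison (median -1.78). The summed intensity of the Sertoli list was 33819 to 39143 in exposed Akt1+/- arrays, against 25418 to 33210 in unexposed ones, and that of the spermatogonial list 5077 to 5872, against 3783 to 4469. Their part in the 3 rises was not tested.

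In Akt1+/+ testes of day 25 limma called 0 of 10 members and 0% of all genes (978 genes and 0 members at an unadjusted p under 0.05). The values ran from -0.29 ± 0.18 for Espn to 0.27 ± 0.33 for Cdh1. Averaged over the genotypes the 7 genes named for Akt1-/- rose, where 36.3% of the tested genes rose and 63.9% passed, from 0.32 ± 0.06 for Eps8 to 0.67 ± 0.07 for Itgb1 and 1.36 ± 0.20 for Cdh1, which had to differ by the filter; of the other 9, 6 rose. This average takes in the exposed Akt1-/- arrays.

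In unexposed testes of day 25 Fyn and Itgb1 were lower in Akt1-/- than in Akt1+/+, 2 of 10, where 7.32% of the tested genes were lower and 12.7% passed. Itgb1 read 9.11, 9.53 and 9.18 in Akt1-/-, against 9.79, 10.02 and 10.03 in Akt1+/+ (-0.67 ± 0.12, adjusted p = 0.00999). Fyn read 9.47, 9.93 and 10.05 in Akt1-/-, against 10.42, 10.20 and 10.45 in Akt1+/+ (-0.54 ± 0.13, adjusted p = 0.0222). The groups did not overlap in either gene. Espn (-0.56 ± 0.18, adjusted p = 0.0565) and Eps8 (-0.30 ± 0.10, adjusted p = 0.0679) missed the threshold with the brightest probe set. With the mean of a gene's probe sets limma also called Eps8 (-0.35, adjusted p = 0.0141) and Ctnnb1 (-0.41, adjusted p = 0.0409) lower. The calls of Itgb1 and Fyn were lost without unexposed Akt1+/+ array 3 (adjusted p = 0.0584 for Itgb1 and 0.104 for Fyn), and that of Fyn also without Akt1+/+ array 1 or Akt1-/- array 1. The summed intensity of the Sertoli list was 31489 to 34208 in Akt1-/- arrays, against 36614 to 40334 in Akt1+/+, and that of the spermatogonial list 4225 to 4311, against 4812 to 5642. Their part in these differences was not tested.

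RNA quality moved with this contrast: the 3' minus 5' difference of the beta-actin control, which grows as RNA degrades, was 0.95 to 1.44 in Akt1-/- arrays of both exposures, 0.58 to 0.78 in Akt1+/- and 0.55 to 0.67 in Akt1+/+ arrays. With that difference as a covariate 0 of 10 members passed for Akt1-/- minus Akt1+/+ in unexposed and 0 in exposed testes (5 at an unadjusted p under 0.05 in each). In unexposed testes Fyn then had -0.81, against -0.54 without the covariate, and Itgb1 -0.54, against -0.67. In exposed testes Espn had -1.18, against -0.52, Itgb1 0.62, against 0.45, Cdh1 2.17, against 3.13, and Fyn 0.15, against 0.51. All Akt1-/- arrays lay above all Akt1+/+ arrays in this covariate, so it is bound up with genotype. Standard errors were wider with it than without it, for example 0.27 for Itgb1 in exposed testes. The share of all tested genes that passed with the covariate is not given here. The part of RNA quality in the result was otherwise not tested.

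For Akt1+/- minus Akt1+/+ in unexposed testes of day 25, Fyn was lower (10.06, 9.68 and 9.76 in Akt1+/-, against 10.42, 10.20 and 10.45 in Akt1+/+; -0.53 ± 0.13, adjusted p = 0.0127), and so was Cdh2 (10.17, 10.05 and 10.30 in Akt1+/-, against 10.66, 10.51 and 10.54 in Akt1+/+; -0.40 ± 0.13, adjusted p = 0.039). They were 2 of 10, where 14.3% of the tested genes were lower and 22.6% passed. The arrays of Akt1+/- lay below those of Akt1+/+ in both genes. The Cdh2 call was lost without any 1 of 5 of these 6 arrays, and that of Fyn without Akt1+/- array 2 or Akt1+/+ array 3. Cdh2 also did not pass with the mean of its probe sets (-0.20, adjusted p = 0.336), against -0.40 for the brightest. Both comparisons share the unexposed Akt1+/+ arrays with the one before. In exposed testes Akt1+/- minus Akt1+/+ gave 0 of 10, where 0.092% of genes passed (1 member at an unadjusted p under 0.05).

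Between exposed Akt1-/- and exposed Akt1+/+ testes of day 25, 9 of 10 members differed, where 61.1% of the tested genes passed; without Cdh1, which had to differ by the filter on low values, it was 8 of the other 9. Of the 7 that were higher (against 32.7% of genes), Cdh1 had 3.13 ± 0.37, Vcl 0.97 ± 0.12, Ctnnb1 0.92 ± 0.13, Ctnna1 0.59 ± 0.13, Fyn 0.51 ± 0.15, Itgb1 0.45 ± 0.14 and Eps8 0.38 ± 0.11. Of the 2 that were lower (against 28.4% of genes), Cdh2 read 10.39 and 9.86 in Akt1-/-, against 10.68, 10.51 and 10.65 in Akt1+/+ (-0.49 ± 0.14, adjusted p = 0.00844), and Espn read 9.23 and 9.76 in Akt1-/-, against 10.19, 10.09 and 9.76 in Akt1+/+ (-0.52 ± 0.21, adjusted p = 0.0398). The Espn groups met at 9.76, and its call was lost without exposed Akt1-/- array 1 or exposed Akt1+/+ array 1 or 2. That of Cdh2 was lost without exposed Akt1-/- array 2 (adjusted p = 0.223). The second Vcl probe set went the opposite way (-0.63 ± 0.24, adjusted p = 0.0327). With array weights 4 members passed, a count given without the share of all tested genes. Both exposed Akt1-/- arrays then had a weight of 0.218, the lowest of that age, against 1.03 to 3.46 in the exposed Akt1+/+ arrays.

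The PTU effect of day 25 was larger in Akt1-/- than in Akt1+/+ for 7 members, where 33.1% of the tested genes had a higher and 59.4% a different effect. Cdh1 is among them and had to differ by the filter on low values, so it was 6 of the other 9. The difference was 3.04 ± 0.49 for Cdh1, 1.12 ± 0.17 for Ctnnb1, 1.12 ± 0.18 for Itgb1, 1.05 ± 0.20 for Fyn, 0.90 ± 0.17 for Vcl, 0.71 ± 0.18 for Ctnna1 and 0.68 ± 0.15 for Eps8, with adjusted p from 1.18e-04 to 0.0035. For Cdh2, Espn and Ctnnd1 it was -0.21 ± 0.19, 0.05 ± 0.28 and 0.05 ± 0.13 and did not pass. With the mean of a gene's probe sets Vcl did not pass (0.27, adjusted p = 0.171), while Cdh2 (-0.58, adjusted p = 0.0303) and Ctnnd1 (0.38, adjusted p = 0.0136) did. In Akt1+/- limma called 0 of 10 and 0% of all genes (2982 genes and 3 members at an unadjusted p under 0.05).

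The same pathway lists were read at day 25. For PTU in Akt1-/-, 34 of the 57 rose, 5 fell and 18 did not pass, where 38.4% of all tested genes rose and 71.2% passed in either direction (median 0.53, against 0.02 over all genes). Of the actin genes 16 of 23 rose and 1 fell, led by Pls3, the bundling protein plastin 3 (2.17 ± 0.16), Rdx, the membrane linker radixin (0.81 ± 0.09), and Actr3 of the Arp2/3 complex, which starts actin branches (1.20 ± 0.15). Of the integrin and adaptor genes 11 of 20 rose and 2 fell, with Lims1 (1.11 ± 0.11) and Fermt2, or kindlin-2 (1.48 ± 0.16), higher and Tln2, a talin (-1.78 ± 0.20), lower. Among the cadherins and catenins 7 of 14 rose and 2 fell, with Ctnnal1 (1.31 ± 0.11) and Ctnnbip1, an inhibitor of beta-catenin (1.16 ± 0.16), higher and Ctnna3, another alpha-catenin (-2.59 ± 0.29), lower.

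In Akt1+/- testes 12 of the 57 rose with PTU and 2 fell, where 11.5% of all tested genes rose and 18.7% passed (median 0.23, against 0.06 over all genes), the 2 being Tln2 (-0.91 ± 0.18, adjusted p = 0.00537) and Ctnna3 (-1.08 ± 0.26, adjusted p = 0.0129). In Akt1+/+ testes limma called 0 of 57 (6 at an unadjusted p under 0.05). In unexposed testes 1 of the 57 was higher and 4 were lower for Akt1-/- minus Akt1+/+, where 12.7% of all tested genes passed, among them Pfn1, the actin monomer binder profilin (-1.20 ± 0.17, adjusted p = 0.00252). For Akt1+/- minus Akt1+/+ 2 were higher and 12 lower, where 14.3% of all tested genes were lower and 22.6% passed.

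Set side by side, the PTU difference in Akt1-/- testes was -0.47 for Vcl, -0.51 for Fyn and -0.36 for Eps8 at day 15 and 1.05, 0.93 and 0.73 at day 25, while Espn had -0.57 and -0.24 and Cdh2 -0.53 and -0.17. The day 25 values are those of the brightest probe sets. Another probe set of Vcl and another of Eps8 did not pass there, and another of Cdh2 fell by 0.91. They also rest on 2 exposed Akt1-/- arrays, both with high Spink8 and few spermatid transcripts. The ages were measured on different arrays and normalized apart, so this difference between ages was not tested.

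Over the 18 arrays of day 15, the tested gene with the highest Pearson correlation with each member was Septin6 for Cdh2 (r = 0.93), Sun2 for Espn (0.98), Ptprd for Vcl (0.95), Tnik for Fyn (0.95), Ywhab for Eps8 (0.94), Dock1 for Ctnna1 (0.94), Wdr3 for Itgb1 (0.94), Meg3 for Ctnnb1 (0.93), Naalad2 for Ctnnd1 (0.90) and Fxyd5 for Cdh1 (0.75). Over the 17 arrays of day 25 it was Myof for Cdh1 (0.99, and 0.85 without the exposed Akt1-/- arrays), Apc for Ctnnb1 (0.99 and 0.97), Nbr1 for Vcl (0.98 and 0.89), Lta4h for Fyn (0.98 and 0.98), Lrp10 for Ctnna1 (0.98 and 0.95), Tmem268 for Itgb1 (0.97 and 0.95), Mccc1 for Eps8 (0.97 and 0.94), Ttc30a1 for Cdh2 (0.92 and 0.88), Cxxc1 for Espn (0.86 and 0.82) and Hnrnpul1 for Ctnnd1 (0.84 and 0.85). These are descriptions of arrays that share their groups and are given with no test. No gene was the closest to a given member at both ages.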

How the data were processed

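Whole-testis RNA, isolated with TriReagent per the labels' protocols, was hybridised to 1-channel Affymetrix arrays. The deposited values are log2 intensities per probe set, made by the authors with RMA per the submitters' processing notes (version not given in the sources used here). They were used as deposited. Of 35556 probe sets at day 15, 21789 have 1 gene symbol, 1621 several and 12146 none; of 45101 at day 25, 34958 have 1, 932 several and 9211 none. The platform annotation named them, and no symbol needed updating. Each gene was read from its probe set with the highest mean, and kept where it exceeded the 25th percentile of all values in at least 2 arrays. limma (version 3.58.1, R 4.3.3) fitted 6 group means per age, with 10 contrasts, moderated variances and Benjamini-Hochberg adjustment over all tested genes. The number of arrays limits the precision. The fit was tested on simulated data. All 10 genes are named in every contrast, up to 3 genes with the smallest p per pathway list and contrast among those past the threshold, and the 1 gene most correlated with each member. The members and lists were chosen with earlier results of these data known. Replicate numbers deviated together (every same-number correlation over 0.1) in 4 contrasts: at day 15 PTU in Akt1+/- (0.391 to 0.444), Akt1-/- minus Akt1+/+ in exposed mice (0.141 to 0.557) and Akt1+/- minus Akt1+/+ in unexposed mice (0.181 to 0.374), and at day 25 PTU in Akt1+/+ (0.233 to 0.396). Alternatives changed the filter, the normalization, the probe set rule, the weights, the blocks and covariates and the arrays included. List genes not analysed here were Actr2, Ptk2, Lyn, Insl3, Lhcgr and Cfd at both ages, Actg1 and Rhox5 at day 15, and Espnl, Trf, Defb36, Nanos3, Hsd3b6, Rnase9 and Plin1 at day 25.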

Additional observations from a re-analysis of the deposited data

Results flagged for a closer look

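The PTU effect differed between Akt1-/- and Akt1+/+ testes, by limma's interaction term, for 2 members at day 15, where 16.4% of all tested genes passed, and 7 at day 25, where 59.4% passed. In either direction, the members' shares were close to those of all genes. By direction, 8.13% of all tested genes had a lower effect at day 15 and 33.1% a higher one at day 25. At day 15 the effect in Akt1-/- minus that in Akt1+/+ was -0.64 for Vcl and -0.61 for Fyn on the log2 scale. At day 25 it was 3.04 for Cdh1, 1.12 for Ctnnb1, 0.71 for Ctnna1, 0.90 for Vcl, 1.05 for Fyn, 0.68 for Eps8 and 1.12 for Itgb1. Cdh1 entered the day 25 test through exposed arrays only and had to differ, so 6 of the other 9 passed. The day 25 values rest on 2 exposed Akt1-/- arrays, both of which hold epididymal transcripts and few spermatid transcripts, and their part in these values was not tested.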

How the results depend on the processing

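Each count of members past the threshold (in parentheses below, as reported) was recomputed under the alternatives. The share of all tested genes under most alternatives is not given here, so these counts say nothing particular to the members. At day 15 the count for PTU in Akt1+/+ (0) was 6 with array weights and 1 with the array set as a block, with only the compared groups, with the replicate block and within the first array set. For PTU in Akt1+/- (1) it was 0 with only the compared groups, without the Spink8 arrays and within the first array set, and for PTU in Akt1-/- (5) it was 0 under the same 3 settings; limma left 1, 1 and 2 members, and 5 each, at an unadjusted p under 0.05. Averaged over genotypes (3) it was 1 without the Spink8 arrays. For Akt1-/- minus Akt1+/+ in unexposed mice (3) it was 5 with the array set block, the 50th percentile filter, the replicate block and the first set, 7 with weights, 6 with quantile normalization and 1 without the Spink8 arrays. For Akt1+/- minus Akt1+/+ in unexposed mice (0) it was 1 with weights. For the difference in PTU effect between Akt1-/- and Akt1+/+ (2) it was 6 with weights, 4 with the 50th percentile filter and 3 with the replicate block. At day 25 the mean of probe sets took in those below the filter. At that age the count for PTU in Akt1+/- (3) was 5 with weights, 1 with the mean of probe sets, 0 without the Spink8 arrays and 6 without the exposed Akt1-/- arrays. For Akt1-/- minus Akt1+/+ it was, in unexposed mice (2), 0 with the actin covariate, 5 with every probe set and 4 with their mean, and, in exposed mice (9), 4 with weights, 0 with the actin covariate and 8 with the replicate block, where Espn was lost (adjusted p = 0.0688). For Akt1+/- minus Akt1+/+ it was 5 with every probe set in unexposed mice (2) and 1 with weights in exposed mice (0), and for the difference in PTU effect between Akt1+/- and Akt1+/+ (0) it was 2 with weights. With every probe set on its own, the probe set with the smallest p stood for each member, which favours a pass in the counts above. In that setting at day 25, 3 results changed sign: Ctnnd1 with PTU in Akt1-/- (0.48), Cdh2 with PTU averaged (-0.27) and Ctnnd1 in exposed Akt1-/- minus Akt1+/+ (0.94). The cause was not tested in any of these. Leaving out 1 array at a time gave, at day 15, 0 to 1 members for PTU in Akt1+/+ and in Akt1+/-, 0 to 5 in Akt1-/-, 2 to 4 averaged, 1 to 4 and 0 to 2 for Akt1-/- minus Akt1+/+ in unexposed and exposed mice and 2 to 5 for the difference in PTU effect in Akt1-/-. At day 25 it gave 0 to 6 for PTU in Akt1+/-, 7 to 8 in Akt1-/-, 0 to 3 and 8 to 9 for Akt1-/- minus Akt1+/+ in unexposed and exposed mice, 0 to 3 for Akt1+/- minus Akt1+/+ in unexposed mice, and 7 to 8 and 0 to 1 for the difference in PTU effect in Akt1-/- and Akt1+/-. Where the replicate numbers deviate together, the pairing changed no count of members, but moved the count of genes past the threshold for exposed Akt1-/- minus Akt1+/+ (750, against 0) and unexposed Akt1+/- minus Akt1+/+ (1303, against 660) at day 15. Over single members, 5357 values kept their call, 98 gained and 122 lost it. The Spink8, exposed Akt1-/- and first-set alternatives were chosen after seeing the data, and the day 25 comparisons that use the exposed Akt1-/- arrays could not be fitted without them. At day 15 the fit without the Spink8 arrays left 1 unexposed Akt1+/+ array, and the first set held 1 exposed Akt1-/- array.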
